A study of Arabidopsis thaliana with 4 samples.

Results

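The WRKY proteins are a family of plant transcription factors, and 50 Arabidopsis thaliana genes of the family were followed here in roots exposed to aluminium (Al). Members are listed loci of the WRKY family in groups I, IIa to IIe and III, and the list uses no measured value in its rule. It was drawn up with earlier results of these data known, and 22 other WRKY loci are not in it. They are 50 of the 22284 loci in the count table, and 47 of them had enough reads to pass the filter on low counts, as did 14739 loci in all. The 3 others were ZAP1 (AT2G04880, also called WRKY1, a group I member) with 1 to 7 reads in each library, WRKY42 with 0 to 9 and WRKY13 with 0 to 3, and their counts are too low for a comparison.

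Root RNA was sequenced in 4 libraries, 1 for each of 4 groups. The genotypes were wild type in the Col-0 background and a line labelled arf10/16, named for mutations in both ARF10 and ARF16, which encode auxin response factors. About 500 seedlings aged 6 d, grown at pH 5.0, spent 24 h in 2% MGRL solution with 0 or 10 µM AlCl3, and only the 10 µM groups received Al. Each library is therefore a pool of whole roots, and no group has a replicate library, so the intervals below cover counting error only and not the spread between cultures.

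WRKY proteins share a DNA-binding domain that contacts the W-box, a short promoter element, and many WRKY genes carry W-boxes in their own promoters and regulate one another. Mitogen-activated protein kinases (MAPKs) phosphorylate some members, and small VQ-motif proteins bind others. The family is best known for defence against pathogens, leaf senescence and abscisic acid responses, and in roots also for phosphate supply and for the malate channel gene ALMT1, through which roots release malate against Al.

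Promoters of 7 members are shown because results further on turn on these genes: WRKY75 and WRKY46 among the genes that rose with Al, WRKY30 and WRKY53 among those that fell, and WRKY33, WRKY40, WRKY30, WRKY53, WRKY62 and WRKY46 among those higher in the labelled line. They were chosen after the values were seen. Each is the 250 bases before the gene start in RefSeq's annotation of TAIR10.1, read 5′ to 3′ along the gene's strand. Capitals mark W-boxes, searched as the 6 letters TTGACC or TTGACT on either strand, so that a box on the other strand reads GGTCAA or AGTCAA. The windows lie at chr2:16107985-16108234 on the plus strand for WRKY33, at chr1:30383311-30383560 on the plus strand for WRKY40, and on the minus strand at chr2:19044956-19045205 for WRKY46, chr5:4151202-4151451 for WRKY75, chr5:8154711-8154960 for WRKY30, chr4:12393983-12394232 for WRKY53 and chr5:352096-352345 for WRKY62.
WRKY33: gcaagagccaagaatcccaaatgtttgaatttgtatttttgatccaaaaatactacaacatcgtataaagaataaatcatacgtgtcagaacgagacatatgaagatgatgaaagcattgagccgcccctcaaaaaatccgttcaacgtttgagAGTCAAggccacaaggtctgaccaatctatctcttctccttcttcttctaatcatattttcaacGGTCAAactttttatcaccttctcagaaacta
WRKY40: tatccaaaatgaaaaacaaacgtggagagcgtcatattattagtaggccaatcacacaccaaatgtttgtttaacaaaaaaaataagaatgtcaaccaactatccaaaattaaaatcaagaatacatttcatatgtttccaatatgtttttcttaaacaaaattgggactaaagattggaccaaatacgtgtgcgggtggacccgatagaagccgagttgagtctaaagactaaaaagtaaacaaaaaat
WRKY75: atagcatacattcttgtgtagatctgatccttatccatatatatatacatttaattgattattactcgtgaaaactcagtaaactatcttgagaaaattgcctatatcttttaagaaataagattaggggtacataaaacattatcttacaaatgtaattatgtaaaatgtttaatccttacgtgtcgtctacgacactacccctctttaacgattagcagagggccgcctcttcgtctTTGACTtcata
WRKY46: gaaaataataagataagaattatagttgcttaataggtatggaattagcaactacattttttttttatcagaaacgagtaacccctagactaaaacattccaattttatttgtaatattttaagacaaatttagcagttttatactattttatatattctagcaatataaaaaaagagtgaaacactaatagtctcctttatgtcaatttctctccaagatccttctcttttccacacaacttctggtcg
WRKY30: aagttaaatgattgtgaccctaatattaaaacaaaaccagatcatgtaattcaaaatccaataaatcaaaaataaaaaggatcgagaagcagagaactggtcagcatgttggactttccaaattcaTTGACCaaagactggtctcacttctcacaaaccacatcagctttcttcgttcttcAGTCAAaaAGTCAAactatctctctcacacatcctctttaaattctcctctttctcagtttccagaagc
WRKY53: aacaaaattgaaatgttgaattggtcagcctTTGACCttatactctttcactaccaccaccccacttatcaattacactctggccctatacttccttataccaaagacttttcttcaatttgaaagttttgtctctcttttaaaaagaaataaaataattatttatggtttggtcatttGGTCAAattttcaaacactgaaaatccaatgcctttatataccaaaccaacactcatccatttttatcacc
WRKY62: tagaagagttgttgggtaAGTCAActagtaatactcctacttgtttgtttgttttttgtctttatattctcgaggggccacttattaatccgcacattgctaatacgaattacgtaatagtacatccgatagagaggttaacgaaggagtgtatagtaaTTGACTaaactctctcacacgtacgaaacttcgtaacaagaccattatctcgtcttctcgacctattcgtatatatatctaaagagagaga

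The WRKY30 window held 3 such boxes, those of WRKY33, WRKY53 and WRKY62 held 2 each, and that of WRKY75 held 1, which begins 11 bases before the gene start. The windows of WRKY40 and WRKY46 held 0, as did that of WRKY70, another gene past the test in both terms. At least 1 box stood in 19 of the 50 members' windows (38.0%) and in 28.4% of all 27443 protein-coding promoters of the same length, and 2 or more stood in 10 members' windows (20.0%) against 6.18% of all promoters. Group III had 5 of 9 windows with a box, 4 of them with 2 or more, while the 3 group IIa windows had none. Of the 17 members that rose with Al 5 had a box, as did 5 of the 11 that fell and 9 of the 19 with neither Al call. Of the 11 members higher in the labelled line 5 had a box (45.5%), as did 14 of the 36 with no genotype call (38.9%). The windows of 5 members overlapped an annotated exon, among them those of WRKY25, WRKY26 and WRKY45, which held boxes. A match is a run of letters in this window, and no binding was measured.

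The label of the mutant line was checked first. ARF10 had 110 and 142 reads in wild type without and with Al, and 3820 and 2640 in the labelled line, 38.6-fold (95% counting interval 32.0 to 47.1) and 21.9-fold (18.5 to 26.1) higher. ARF16 had 159 and 75 reads in wild type and 71 and 41 in the labelled line, 2.01-fold (1.51 to 2.70) lower without Al. The ARF10 counts go against a plain loss of that transcript, and reads over an interrupted gene need not come from a whole transcript, so genotype differences below are differences between the wild-type libraries and those labelled arf10/16. Depth was 2080348 to 2280894 reads in each library. The 10 root marker genes all passed the filter, with a summed level of 1040 and 940 CPM (reads scaled to library depth) without Al in wild type and the labelled line and of 251 and 390 with Al. In the additive test described below 6 of them fell with Al (13.1% of all loci fell). By the rule of size, also described below, 6 were lower in wild type (12.1% of all loci) and 4 in the labelled line (9.41%). The 8 shoot marker genes summed to 36.9 to 99.4 CPM, and 3 of them were at 0 reads in each library with Al. In such bulk RNA a smaller number of cells of a type and less RNA per cell cannot be told apart, and the part of the root markers' fall in the WRKY values was not tested.

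The members together held 0.263% of all reads in wild type without Al, 0.39% in wild type with Al, 0.674% in the labelled line without Al and 0.616% in the labelled line with Al. WRKY33 alone gave 19.3%, 23.5%, 32.8% and 29.7% of the members' reads in the same order. Both libraries of the labelled line thus stood above both wild-type libraries. The median member level was 14.5 RPKM (reads per kilobase of model, scaled to library depth) in wild type without Al and 23.75 with Al, and 29.1 and 27.85 in the labelled line. Of the 47 members that passed the filter, 21 (44.7%) had their highest CPM in the labelled line without Al and 19 (40.4%) in the labelled line with Al, against 22.6% and 24.8% of all loci that passed. Only 2 (4.26%) were highest in wild type without Al, where 29.7% of all loci were highest, and 5 (10.6%) in wild type with Al, against 22.9%.

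**Figure D1:**
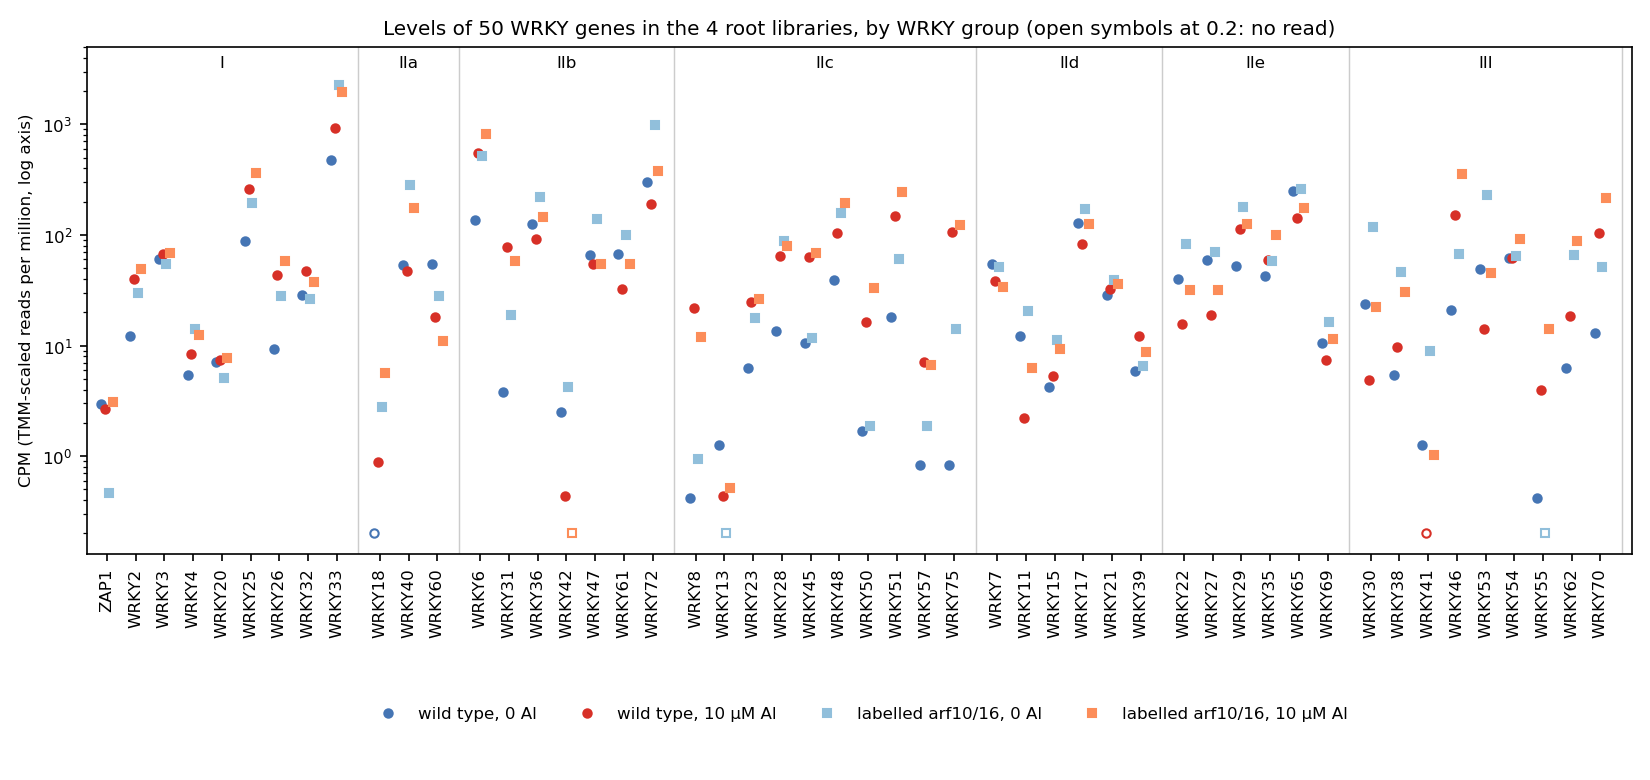
Level of each of the 50 WRKY genes in the 4 libraries, in CPM on a log axis, ordered by group; 1 point is 1 library, and open symbols mark a library without a read. For 41 of the 47 genes that passed the filter, the labelled line lies above wild type without Al, as for 7286 of all 14739 loci. WRKY33 is the gene with the most reads.

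On the length-corrected scale, untreated wild-type roots had WRKY65 (269 RPKM), WRKY33 (267 RPKM) and WRKY72 (166 RPKM) as the 3 highest members. In wild type with Al the order was WRKY33 (482 RPKM), WRKY6 (275 RPKM) and WRKY51 (210 RPKM). In the labelled line WRKY33 led in both libraries, at 1160 RPKM without Al and 963 with Al, followed by WRKY72 at 499 RPKM without Al and by WRKY6 at 384 RPKM with Al. The 31 members with 1 RefSeq transcript had a median total of 545 reads and the 19 with several had 86, and loci with several transcripts can be under-read where the counting dropped reads shared between models.

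Aluminium was compared first, as the effect of 24 h with 10 µM AlCl3 within each genotype. A rule of size was used: a member was called higher or lower if its CPM changed by a log2 ratio of 1 or more and if the exact 95% counting interval left out a ratio of 1. By this rule 19 of the 47 members were higher with Al in wild type, where 14.4% of all loci were called higher, and 7 were lower, where 12.1% were. In the labelled line 11 members were higher (10.8% of all loci) and 9 were lower (9.41%). The median member ratio was 0.72 on the log2 scale in wild type and 0.32 in the labelled line, against 0.01 and -0.02 over all loci. Of the members, 11 were called higher and 6 lower in both genotypes, 8 were called higher and 1 lower in wild type alone, 3 were called lower in the labelled line alone, and none was called in opposite directions. The matching overlap over all loci was not counted. All loci too were called higher more often in wild type (14.4%) than in the labelled line (10.8%).

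The test available was edgeR's quasi-likelihood test in an additive model of Al and genotype, with p adjusted by the Benjamini-Hochberg method over all 14739 loci (threshold 0.05). Each term compares 2 libraries with 2 others, only 1 residual degree of freedom remains, and a difference in response between the genotypes enters the error. With Al, 17 members rose (15.5% of all loci rose) and 11 fell (13.1% fell), and 19 did not pass. With the DESeq2 Wald test 12 members rose and 5 fell. That test called 1749 of all loci for Al in either direction, against 4202 with edgeR. Standard errors (SE) given with these effects come from the test and are not a spread between replicates.

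Group IIc held 8 of the 17 rising members, and none of its 9 measured members fell. All 9 were higher with Al in wild type by the rule of size and 6 of them in the labelled line, with median log2 ratios of 2.50 and 2.01. WRKY75 (AT5G13080), which acts in phosphate starvation responses and leaf senescence, had 2 and 241 reads in wild type without and with Al and 30 and 238 in the labelled line. Its 2 Al libraries were close to each other and far above both untreated ones. The Al ratio was 126 in wild type (34.6 to 1050) and 8.79 in the labelled line (6.00 to 13.3), and the additive effect was 4.11 ± 0.52 (log2, SE; edgeR's quasi-likelihood test, adjusted p = 0.000698). WRKY45 (AT3G01970), which activates the phosphate transporter gene PHT1;1, had 25 and 145 reads in wild type and 25 and 132 in the labelled line. These are nearly the same counts in both genotypes, with folds of 6.08 (3.96 to 9.70) and 5.85 (3.79 to 9.36) and an additive effect of 2.57 ± 0.23 (adjusted p = 0.000132).

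WRKY50 and WRKY51, which act in the repression of jasmonate responses by salicylic acid, rose in the same direction from different starting levels. WRKY50 had 4 and 37 reads in wild type and 4 and 64 in the labelled line, 9.69-fold (3.48 to 37.4) and 17.7-fold (6.59 to 67.0) higher with Al. WRKY51 had 43 and 337 reads in wild type and 129 and 474 in the labelled line, 8.21-fold (5.96 to 11.6) and 4.07-fold (3.34 to 4.98) higher. WRKY8, which acts in salt tolerance and antiviral defence, went from 1 to 50 reads in wild type and from 2 to 23 in the labelled line, so its untreated level rests on 3 reads in all. Its folds were 52.4 (8.98 to 2110) and 12.7 (3.15 to 111), with adjusted p = 0.000724 in the additive test. The other rising members of the group were WRKY57, a drought tolerance gene with 2 to 16 reads per library, WRKY48, a negative regulator of basal defence, and WRKY23, an auxin-induced gene of root growth. WRKY23 had 15 and 56 reads in wild type and 38 and 51 in the labelled line, and its log2 effect of 1.16 ± 0.35 had an adjusted p of 0.037. WRKY28 (AT4G18170), an activator of the salicylic acid synthesis gene ICS1, was the member of the group that passed in neither term of the model, and its counts are given with the differences between genotypes.

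Group IIb moved in both directions, with 2 of 6 measured members rising and 3 falling. WRKY31 (AT4G22070) had 9 and 176 reads in wild type and 40 and 113 in the labelled line, so that wild type had both the lowest and the highest count. It was 20.5-fold (10.5 to 45.5) higher with Al in wild type and 3.13-fold (2.16 to 4.61) in the labelled line, with an additive effect of 2.69 ± 0.48 (adjusted p = 0.00355). WRKY6 (AT1G62300), its close relative and a repressor of the phosphate exporter gene PHO1, had 323 and 1247 reads in wild type and 1109 and 1589 in the labelled line, and its additive effect was 1.33 ± 0.30 (adjusted p = 0.0113). The library with the lowest WRKY6 count was untreated wild type, and the other 3 were within a narrower range. WRKY72, which acts in basal defence against oomycetes and root-knot nematodes, fell from 720 to 431 reads in wild type and from 2120 to 738 in the labelled line (effect -1.03 ± 0.22, adjusted p = 0.0083). WRKY61 fell by 0.97 ± 0.20 on the log2 scale, with 161 and 73 reads in wild type and 214 and 105 in the labelled line. WRKY47 had 158 and 124 reads in wild type and 301 and 106 in the labelled line, and its fall was near the threshold (adjusted p = 0.0469).

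In group I, 3 of 8 measured members rose and none fell. WRKY25 and WRKY26, both heat tolerance genes related to WRKY33, had 210 and 592 reads and 22 and 98 reads in wild type, and 420 and 700 reads and 60 and 113 reads in the labelled line. The log2 effect was 1.22 ± 0.22 for WRKY25 (adjusted p = 0.00399) and 1.55 ± 0.29 for WRKY26 (adjusted p = 0.00496). WRKY2, which acts in polarity of the zygote and in seed germination, rose with 29 and 91 reads in wild type and 64 and 95 in the labelled line (1.16 ± 0.28, adjusted p = 0.0142). Each of these 3 had its lowest count in untreated wild type and its highest in the labelled line with Al. WRKY3, a gene of resistance to necrotrophic fungi, had 117 to 153 reads in every library and passed in neither term.

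Group III, several of whose genes act in salicylic acid signalling and senescence, split into 3 rising and 3 falling members of 9. WRKY46 (AT2G46400), which is known to repress ALMT1, had 50 and 343 reads in wild type and 143 and 691 in the labelled line, 7.19-fold (5.33 to 9.87) and 5.35-fold (4.46 to 6.45) higher with Al. Its additive effect was 2.61 ± 0.21 (adjusted p = 9.68e-05). WRKY70 (AT3G56400), a senescence repressor of the salicylic acid pathway, had 31 and 240 reads in wild type and 110 and 416 in the labelled line, with an effect of 2.47 ± 0.26 (adjusted p = 0.00029). WRKY54, its close relative in that role, had 147 and 141 reads in wild type and 139 and 177 in the labelled line, and its Al ratio in wild type was 1.0 (0.792 to 1.27). WRKY55, a neighbour of WRKY54 on the chromosome that promotes senescence, had 1 and 9 reads in wild type and 0 and 27 in the labelled line, which is 9.43-fold higher for wild type (1.31 to 413) and at least 9.97-fold higher in the labelled line, against a floor of 3 reads in the library at 0. The neighbours WRKY54 and WRKY55 therefore had unlike Al values.

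The falling members of group III were WRKY30, WRKY53 and WRKY41. WRKY53 (AT4G23810), a promoter of leaf senescence, had 117 and 32 reads in wild type and 494 and 87 in the labelled line, 3.49-fold (2.34 to 5.33) and 5.13-fold (4.07 to 6.52) lower with Al, and its effect was -2.13 ± 0.23 (adjusted p = 0.000313). WRKY30 (AT5G24110), which acts in oxidative stress tolerance, had 57 and 11 reads in wild type and 252 and 43 in the labelled line. In both genotypes its Al library lay far below the untreated one, 4.95-fold (2.57 to 10.5) and 5.29-fold (3.82 to 7.49) lower (effect -2.37 ± 0.24, adjusted p = 0.000229). WRKY41, a gene of seed dormancy, had 3 and 0 reads in wild type and 19 and 2 in the labelled line, so the 8.58-fold lower value in the labelled line has a wide interval (2.07 to 75.9).

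The remaining groups held 5 falling members and 1 rising member. In group IIe, WRKY22, which acts with WRKY29 downstream of the flagellin receptor, had 95 and 36 reads in wild type and 179 and 61 in the labelled line and fell by 1.37 on the log2 scale (SE 0.21, adjusted p = 0.00184). WRKY27, known from bacterial wilt, had 141 and 43 reads and 151 and 61 reads and fell by 1.39 (SE 0.22, adjusted p = 0.00224). WRKY65 had 602 and 321 reads in wild type and 561 and 336 in the labelled line, and its fall was smaller (-0.72 ± 0.19, adjusted p = 0.022). WRKY35 rose by 0.64 ± 0.20 (adjusted p = 0.0392), from 101 to 136 reads in wild type and from 124 to 192 in the labelled line. In group IId, whose members bind calmodulin, WRKY11, a negative regulator of basal defence, fell with 29 and 5 reads in wild type and 44 and 12 in the labelled line (-1.99 ± 0.39, adjusted p = 0.00576). The other 5 members of that group passed in neither term, among them WRKY17, the partner of WRKY11 in that role, with 302 and 187 reads and 367 and 242 reads. In group IIa, whose 3 genes act together in immunity and abscisic acid responses, WRKY60 had 129 and 41 reads in wild type and 60 and 21 in the labelled line and fell (-1.49 ± 0.24, adjusted p = 0.00229).

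**Figure D2:**
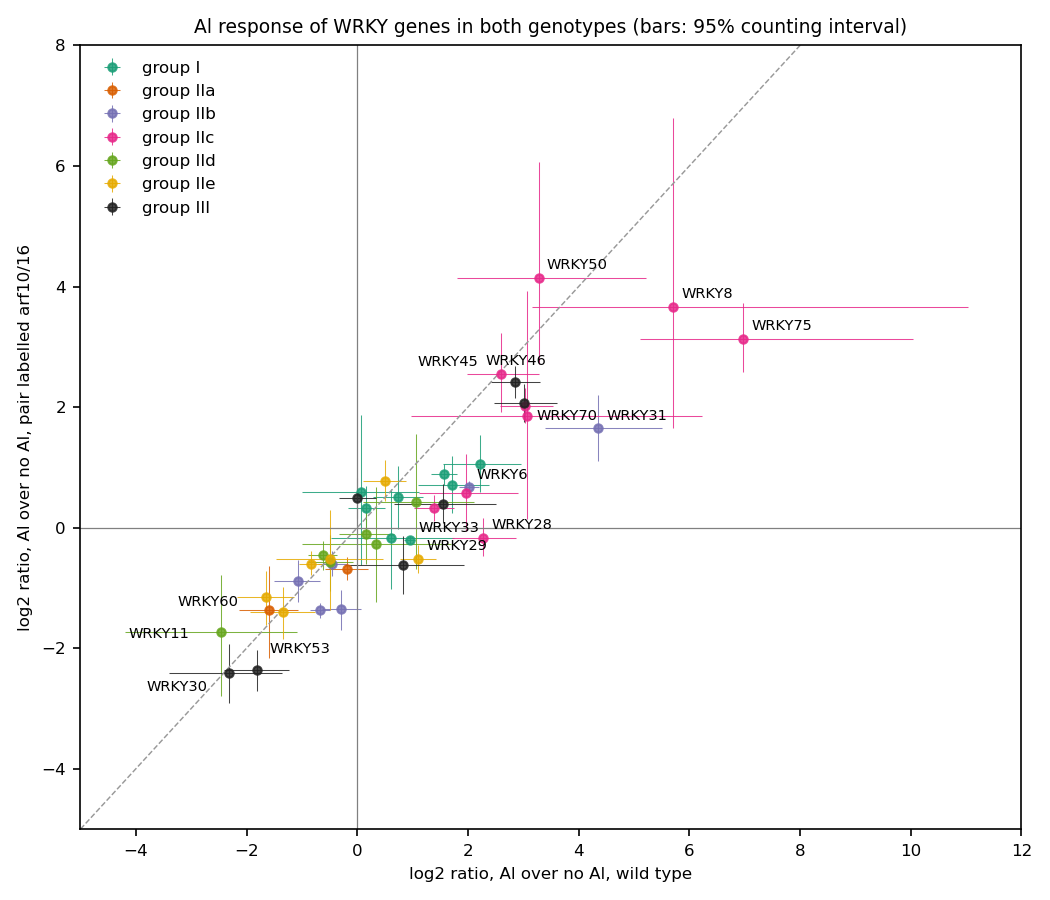
Log2 ratio with Al over without Al for 44 WRKY genes, wild type on the x axis and the labelled line on the y axis; bars are exact 95% counting intervals and the dashed line marks equal ratios. The 6 other genes are not drawn because they had a library at 0 reads or did not pass the filter. Group IIc genes other than WRKY28 lie to the upper right, and WRKY30, WRKY53 and WRKY11 to the lower left. WRKY28, WRKY33, WRKY29 and WRKY38 are among the genes right of 0 in wild type and below 0 in the labelled line.

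The genotypes were compared next, as the labelled line over wild type at each treatment. Without Al, 26 of the 47 members were higher in the labelled line, where 7.96% of all loci were called higher, and 0 were lower, where 2.6% were. With Al, 11 members were higher (4.12% of all loci) and 0 were lower (1.77%). The median member ratio was 1.15 on the log2 scale without Al and 0.58 with Al, against 0 and 0.04 over all loci. Among the members called higher, 10 were so at both treatments, 16 without Al alone and 1 with Al alone. The matching overlap over all loci was not counted. All loci too were called higher more often without Al (7.96%) than with Al (4.12%). Members with any positive ratio numbered 41 without Al and 40 with Al, and 35 had a smaller ratio with Al than without. Of all 14739 loci, 7286 had a positive ratio without Al and 7993 with Al. The ratio was larger with Al than without for 7363 of all loci and for 12 members. The 43 members with a mean of at least 10 reads, an alternative chosen after the data were seen, included 24 of those higher without Al.

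In the additive model 11 members were higher in the labelled line (edgeR's quasi-likelihood test; 1.86% of all loci were higher) and 0 were lower (0.305%). At an unadjusted p under 0.05 in that test the counts were 28 higher and 1 lower, beside 1547 higher and 746 lower of all 14739 loci. No member was called by limma-trend on log2(RPKM + 1), which called 2 loci of all. At an unadjusted p under 0.05 there, 24 members were higher, and 2339 of all 14739 loci passed in either direction. Of the 11 members, 3 also rose with Al, 4 fell with Al and 4 passed in the genotype term alone.

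Group III held 6 of the 11, with median log2 ratios of 2.17 without Al and 1.57 with Al. WRKY62 and WRKY38, which act together as negative regulators of basal defence, were low in wild type and higher in the labelled line at both treatments. WRKY62 (AT5G01900) had 15 and 42 reads in wild type without and with Al and 142 and 169 in the labelled line, 10.5-fold (6.17 to 19.3) and 4.73-fold (3.36 to 6.80) higher, with a genotype effect of 2.70 ± 0.29 (adjusted p = 0.0107). WRKY38 had 13 and 22 reads in wild type and 100 and 59 in the labelled line, with an effect of 2.34 ± 0.35 (adjusted p = 0.0265). Both libraries of the labelled line were above both wild-type libraries for each gene.

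WRKY30 and WRKY53, which fell with Al, were higher in the labelled line at both treatments. WRKY30 was 4.92-fold (3.68 to 6.68) higher without Al and 4.60-fold (2.33 to 9.89) with Al, with an effect of 2.26 ± 0.23 (adjusted p = 0.0107). WRKY53 was 4.70-fold (3.83 to 5.80) and 3.20-fold (2.11 to 4.96) higher, with an effect of 2.01 ± 0.23 (adjusted p = 0.0123). For both genes the labelled line with Al had fewer reads than wild type without Al, so the genotypes overlap across treatments. WRKY46 and WRKY70, which rose with Al, were also higher in the labelled line, by 1.42 ± 0.21 (adjusted p = 0.0265) and 1.40 ± 0.25 (adjusted p = 0.0392) on the log2 scale. Their highest count was in the labelled line with Al and their lowest in untreated wild type.

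Outside group III, WRKY40 (AT1G80840) had the largest effect among members past the test. It is the abscisic acid and immunity regulator that pairs with WRKY18 and WRKY60, and it had 128 and 107 reads in wild type and 604 and 341 in the labelled line. The folds were 5.25 (4.33 to 6.40) without Al and 3.75 (3.01 to 4.70) with Al, and the genotype effect was 2.15 ± 0.21 (adjusted p = 0.0101). Of its 2 partners, WRKY60 went the other way: it was 1.93-fold (1.41 to 2.67) lower in the labelled line without Al and did not pass (adjusted p = 0.108). WRKY18 was higher in the labelled line, as WRKY40 was, but on few reads. It had 0 and 2 reads in wild type and 6 and 11 in the labelled line and did not pass (adjusted p = 0.157).

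WRKY33 (AT2G38470), the regulator of camalexin synthesis and of resistance to necrotrophic fungi that is phosphorylated by MPK3 and MPK6, had 1135 and 2089 reads in wild type and 4834 and 3809 in the labelled line. Both libraries of the labelled line were above both wild-type libraries. It was 4.74-fold (4.44 to 5.06) higher without Al and 2.14-fold (2.03 to 2.26) with Al, and the effect was 1.67 ± 0.27 (adjusted p = 0.0288). The others past the test were WRKY72 (1.37 ± 0.22, adjusted p = 0.0288), WRKY48 (1.44 ± 0.27, adjusted p = 0.0409) and WRKY22 (1.04 ± 0.21, adjusted p = 0.0463). WRKY48 had 94 and 234 reads in wild type and 337 and 380 in the labelled line.

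**Figure D3:**
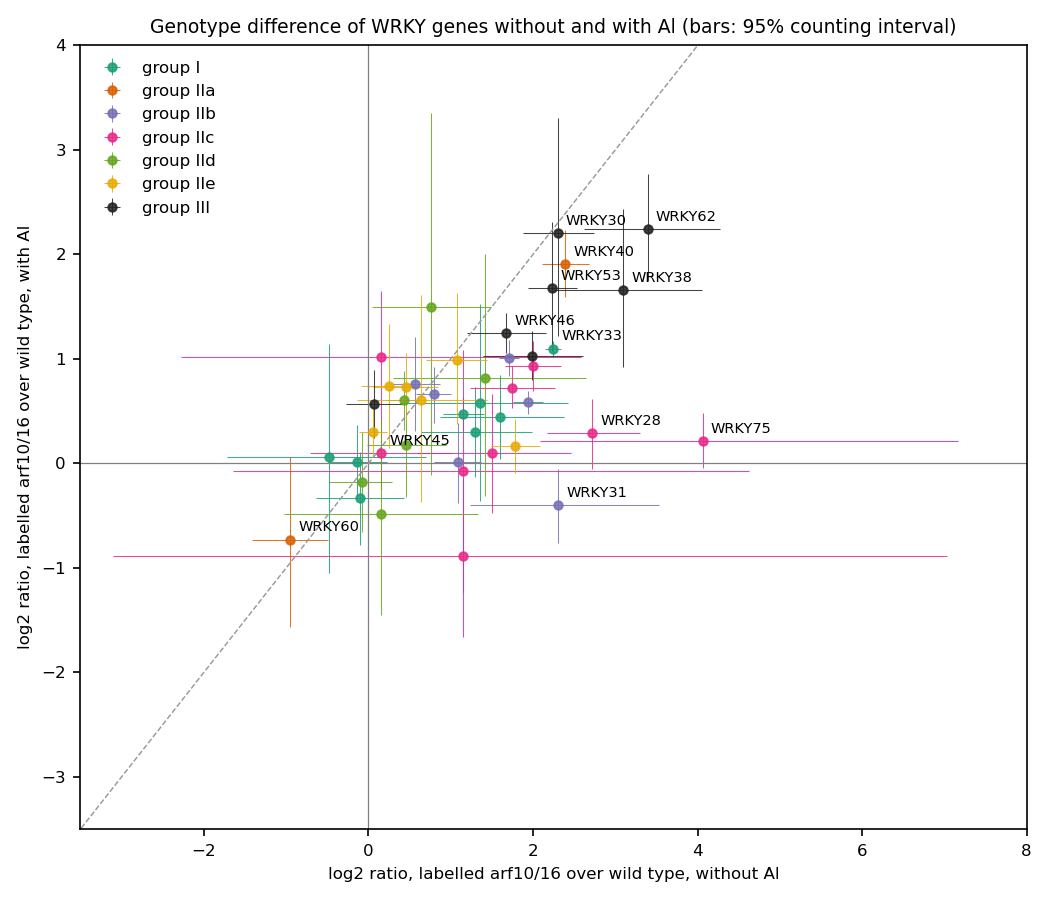
Log2 ratio of the labelled line over wild type for the WRKY genes, without Al on the x axis and with Al on the y axis; bars are exact 95% counting intervals and the dashed line marks equal ratios. The 44 genes drawn have reads in every library, and most lie right of 0. Of the 47 members that passed the filter, 35 had a smaller ratio with Al than without and 12 a larger one. The ratio was larger with Al for 7363 of all 14739 loci.

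The Al responses of the genotypes were then set against each other, as the log2 Al ratio of the labelled line minus that of wild type. No member lay above by at least 1 with an interval excluding 0 (3.31% of all loci did), and 12 lay below (4.84%). The median member difference was -0.52. With 1 library per group this difference was not tested, and it shares its untreated libraries with the genotype comparison without Al. The sizes were greatest for WRKY75 at -2.87 (-5.42 to -1.67), WRKY31 at -2.46 (-3.72 to -1.57) and WRKY28 at -2.36 (-3.04 to -1.79).

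WRKY28 had 32 and 148 reads in wild type and 189 and 153 in the labelled line. The untreated wild-type library was low and the other 3 were close together: Al gave 4.84-fold (3.29 to 7.34) in wild type and 1.12-fold lower (0.896 to 1.39) in the labelled line, and the labelled line was 6.57-fold (4.50 to 9.88) higher without Al. WRKY75 had 16.7-fold (4.23 to 144) more in the labelled line without Al and 1.16-fold (0.967 to 1.40) more with Al, and its 2 untreated libraries were both far below those with Al. WRKY29, the partner of WRKY22 in flagellin signalling, had 124 and 254 reads in wild type and 384 and 242 in the labelled line, a difference of -1.60 (-2.0 to -1.23). WRKY33 differed by -1.14 (-1.26 to -1.02), being 1.93-fold (1.79 to 2.07) higher with Al in wild type and 1.15-fold (1.10 to 1.20) lower in the labelled line. In these genes the highest count without Al was in the labelled line, and the counts with Al were closer together. Members with the same Al ratio in both genotypes within counting error included WRKY45 (-0.04, -0.92 to 0.81), WRKY30 (-0.25, -1.16 to 0.89) and WRKY22 (-0.10, -0.77 to 0.61).

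**Figure D4:**
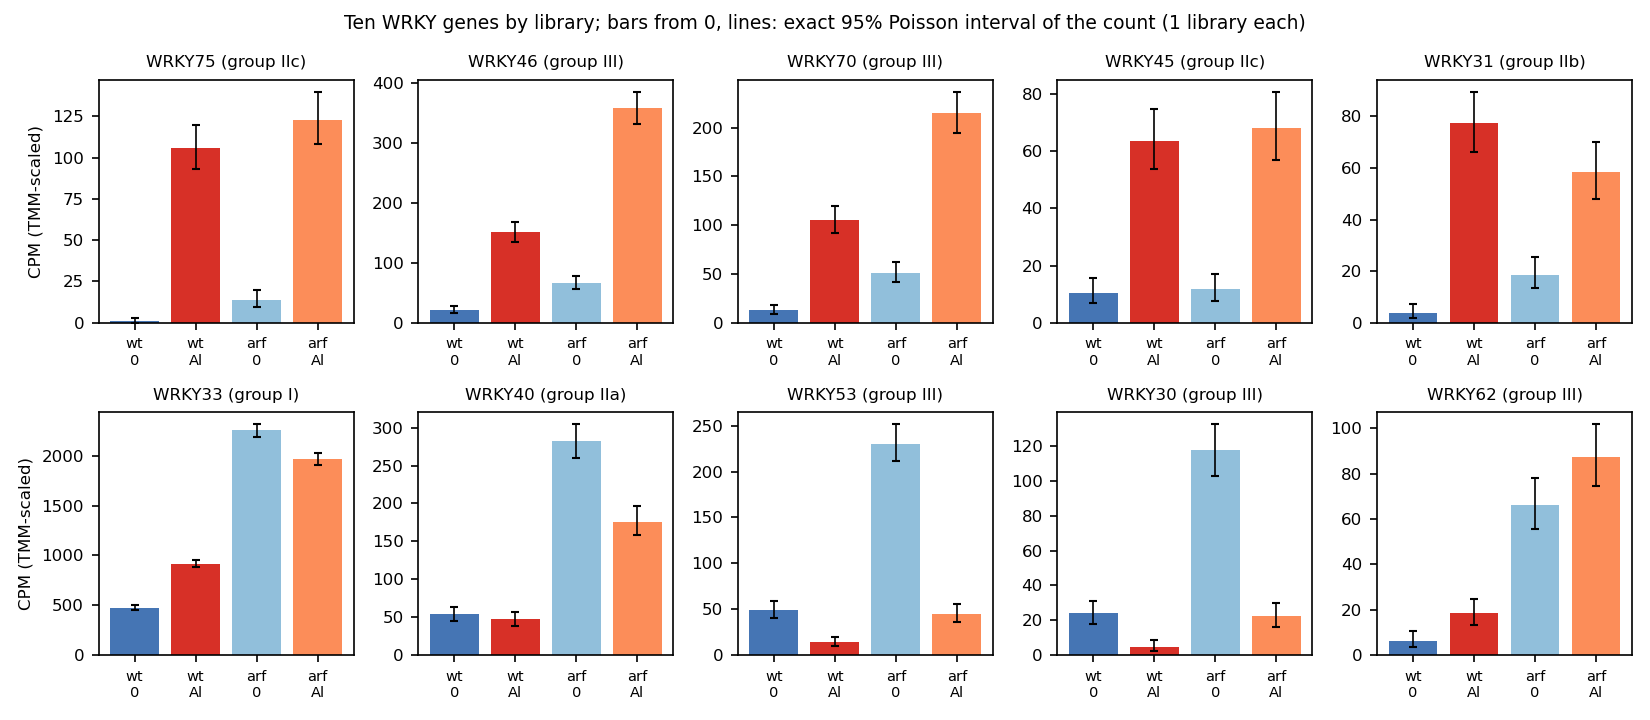
CPM of 10 WRKY genes in the 4 libraries, 1 panel per gene; each bar is 1 library, starts at 0 and carries its exact 95% Poisson interval, which covers counting error only. WRKY75, WRKY46, WRKY70, WRKY45 and WRKY31 are higher in both libraries with Al, WRKY30 and WRKY53 are lower in both, and WRKY33, WRKY40 and WRKY62 are higher in both libraries of the labelled line.

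Other WRKY loci were read as a comparison within the family. Of 22 such loci, 18 were in the table and 11 passed the filter. With Al 6 of them rose (54.5%, against 15.5% of all loci) and 1 fell (9.09%, against 13.1%). Their median log2 Al ratio in wild type was 2.14. Without Al, 1 of the 11 (WRKY59) was higher in the labelled line by the rule of size (9.09%, against 7.96% of all loci). The median log2 genotype ratio was 0.55. WRKY59 had 73 and 588 reads in wild type and 244 and 911 in the labelled line. WRKY24 had 40 and 176 reads in wild type and 57 and 147 in the labelled line, 1.59-fold (1.04 to 2.44) higher without Al. WRKY56 had 20 and 133 reads and 22 and 118 reads, and its genotype ratio was 1.22 (0.637 to 2.36) without Al and 1.04 (0.807 to 1.35) with Al.

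The kinases upstream of WRKY33 mostly did not pass. Of 10 measured genes of the MAPK module, MPK11 rose with Al and MPK3 was higher in the labelled line, and none fell or was lower. Each is 10.0% of the module, against 15.5% of all loci rising and 1.86% higher in the labelled line. MPK3, the kinase that phosphorylates WRKY33, had 585 and 1087 reads in wild type and 2078 and 1778 in the labelled line, 3.95-fold (3.60 to 4.34) higher without Al, with a genotype effect of 1.46 ± 0.26 (adjusted p = 0.0368). MPK6, the other kinase of WRKY33, had 346 to 403 reads in every library. Both libraries of the labelled line were above wild type for MPK3, while MPK6 showed no such order.

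VQ proteins, the partners of WRKY proteins, had 26 measured genes. With Al 6 rose (23.1%, against 15.5% of all loci) and 4 fell (15.4%, against 13.1%). In the labelled line 3 were higher (11.5%, against 1.86% of all loci). By the rule of size, the labelled line had 14 of them higher without Al (53.8%, against 7.96% of all loci) and 0 lower (against 2.6%). With Al it had 4 higher (15.4%, against 4.12%). SIB1, a partner of WRKY33, rose with 8 and 23 reads in wild type and 18 and 37 in the labelled line (1.33 ± 0.36, adjusted p = 0.0245). MKS1, which links MPK4 to WRKY33, had 28 and 48 reads in wild type and 113 and 62 in the labelled line, and its 4.49-fold (2.95 to 7.06) higher value without Al did not carry it past the test (adjusted p = 0.0873).

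Genes reported elsewhere as targets of WRKY proteins numbered 18 measured. With Al 7 rose (38.9%, against 15.5% of all loci) and 4 fell (22.2%, against 13.1%). In the labelled line 4 were higher (22.2%, against 1.86% of all loci). Among reported WRKY33 targets, PAD3, the last enzyme of camalexin synthesis, had 50 and 150 reads in wild type and 30 and 66 in the labelled line and rose with Al (1.49, adjusted p = 0.0019). CYP71A12, of the same tryptophan-derived pathway, had 365 and 207 reads and 738 and 317 reads and was higher in the labelled line (1.01, adjusted p = 0.0429). At the same treatment PAD3 was lower in the labelled line, 1.5-fold (0.934 to 2.44) without Al and 1.93-fold (1.44 to 2.62) with Al. The interval without Al includes 1, and PAD3 did not pass for genotype (edgeR's quasi-likelihood test, adjusted p = 0.121). WRKY33 was higher in the labelled line at both treatments. Among the 4 targets past the test for genotype, CYP81F2 and RRTF1 had the largest effects. They were CYP81F2, an enzyme of indole glucosinolate synthesis (50 and 81 reads in wild type, 694 and 264 in the labelled line, adjusted p = 0.0265), and RRTF1, a redox-responsive regulator (58 and 19 reads, 256 and 80 reads, adjusted p = 0.0101). MYB51, which regulates indole glucosinolates, was higher too (182 and 437 reads, 955 and 803 reads, adjusted p = 0.0368).

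Targets of single members were read beside them. ALMT1, the target of WRKY46, had 8 and 819 reads in wild type and 1 and 342 in the labelled line, and it rose with Al by 7.11 on the log2 scale, as WRKY46 itself rose. PHO1, the target of WRKY6, had 1733 and 874 reads in wild type and 1292 and 592 in the labelled line and fell with Al (-0.95, adjusted p = 0.00467). PHT1;1, the target of WRKY45, had 2219 and 306 reads and 2037 and 259 reads and fell (-2.81, adjusted p = 4.4e-05), while WRKY45 rose. ICS1 (EDS16), the target of WRKY28, rose from 5 to 54 reads in wild type and from 23 to 81 in the labelled line (2.44, adjusted p = 0.00155).

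A list of touch and wounding genes was read beside the genotype values. Of 13 measured genes of this list, 4 (STZ, ERF6, ERF13 and SZF1) were higher in the labelled line in the additive test (30.8%, against 1.86% of all loci). By the rule of size 8 were higher without Al (61.5%, against 7.96%) and 2 with Al (15.4%, against 4.12%), and 0 were lower. TCH2 and TCH3 were among the 9 with no genotype call. The 2 that rose with Al in the additive test were TCH4 and RHL41, from 95.2 to 589 and from 73.4 to 427 CPM in wild type. The median additive Al effect of the list was -0.11 (log2). The 13 genes summed to 1200 CPM in wild type without Al, 2050 in wild type with Al, 2900 in the labelled line without Al and 3410 in the labelled line with Al. Their median log2 genotype ratio was 1.37 without Al and 0.75 with Al, beside 1.15 and 0.58 for the WRKY members. The part of handling or wounding in the WRKY values was not tested.

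**Figure D5:**
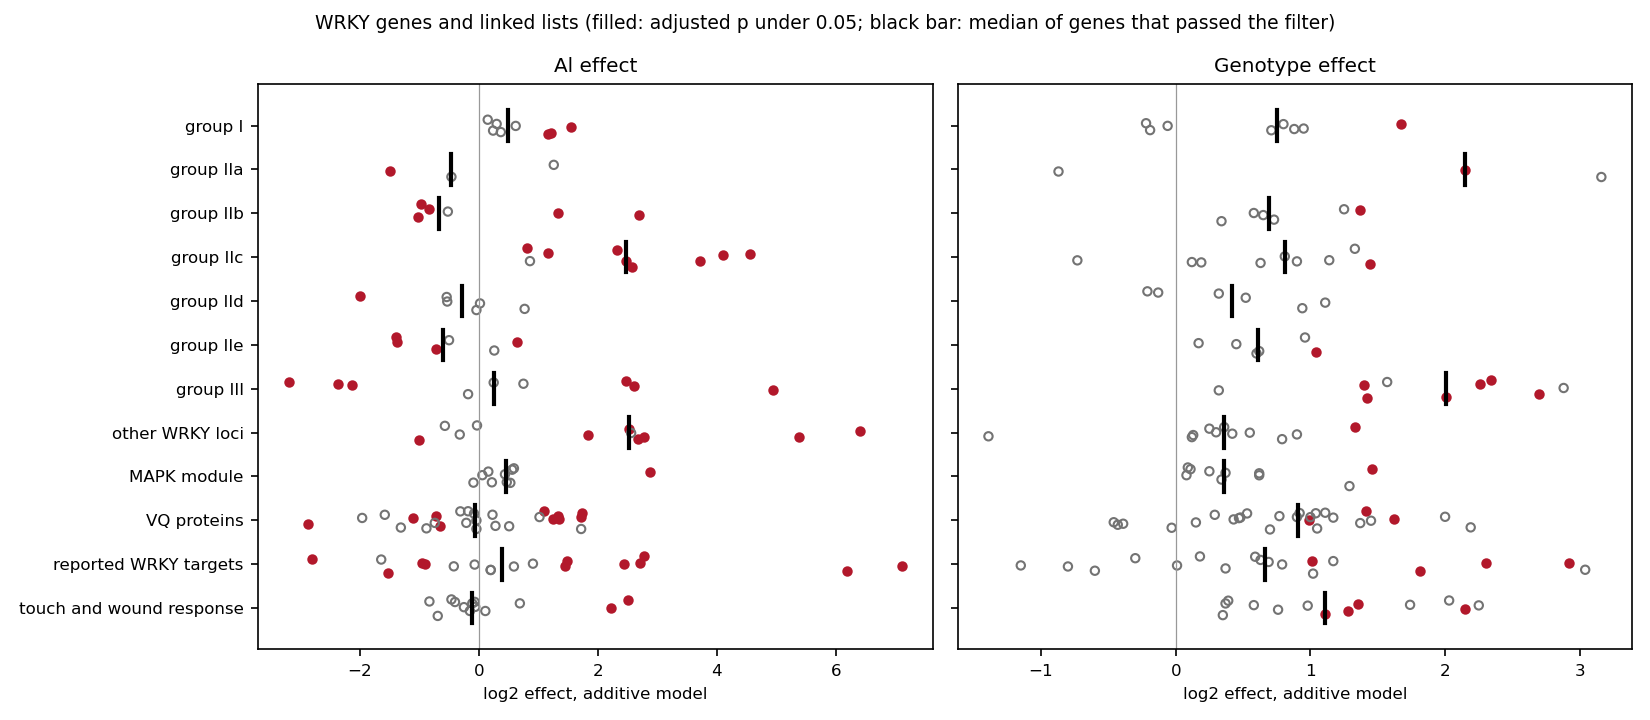
Additive log2 effects of Al and of genotype from edgeR for the WRKY members by group and for the other gene lists; 1 point is 1 gene, filled points have an adjusted p under 0.05 and black bars are medians. Of the WRKY groups, IIc has the highest Al median, with 8 of 9 genes filled, and group III holds 6 of the 11 members filled for genotype.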

How the data were processed

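Total RNA of roots was sequenced in 4 libraries, 1 per genotype and treatment. The authors deposited a table of whole read counts per transcript model and a table of RPKM values, which divide each count by model length and column total. The sources used here do not give the aligner, the genome build or the strand setting, so reads of a gene and of an antisense or overlapping partner cannot be told apart. Each deposited RPKM value returned a whole-number model length for 100% of models.

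Counts of the 25092 models were summed over 22284 loci and filtered by filterByExpr of edgeR 4.0.16 (R 4.3.3), which kept 14739 loci, then scaled by TMM. Log2 ratios used a prior count of 2, and folds are ratios of scaled counts without it, with Clopper-Pearson 95% intervals, which cover counting error only. A locus at 0 reads was set to a floor of 3 counts for a fold given as "at least". The additive model used edgeR's quasi-likelihood test (common dispersion 0.0259, coefficient of variation 0.161) and was tested on simulated data. Those data held no genotype difference in Al response, so they cannot show how such a difference acts on the test. The SE is the absolute effect divided by the square root of F. Depth was 2232186 and 2280894 reads in wild type without and with Al and 2188782 and 2080348 in the labelled line.

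Alternatives were total-count and DESeq2 (1.42.0) scaling, no filter, the most-read model of a locus, a prior count of 0.5, the DESeq2 Wald test, limma-trend (limma 3.58.1) on log2(RPKM + 1) and log2(RPKM + 0.1), and the size rule on RPKM. Promoter sequences and gene names came from RefSeq's TAIR10.1 annotation, in its own coordinates. Counts in every library are given for members past the additive test that are among the 4 largest effects of their group and for the 3 largest differences of Al responses; further members were named after their values were seen. The members and gene lists were chosen with earlier results of these data known.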

Additional observations from a re-analysis of the deposited data

Results flagged for a closer look

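In 2 members the Al ratios of the genotypes had opposite signs and the counting interval of each ratio left out 1. WRKY33 was higher with Al in wild type and lower in the labelled line, a difference of -1.14 between the log2 Al ratios. WRKY29 was likewise higher in wild type and lower in the labelled line, with a difference of -1.60. Each pair is 1 library against 1, so neither difference was tested.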

How the results depend on the processing

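No paired analysis was possible because each group has 1 library, and leaving out a library was not run because it leaves no residual degrees of freedom. Of 98 counts of members recomputed under the alternatives, 93 stayed within 1.5 times the reported count. The 5 others were members lower in the labelled line without Al, which went from 0 to 1 (WRKY60) with total counts and to 1 with log2(RPKM + 1); members falling with Al, which went from 11 to 5 with the DESeq2 Wald test; and members higher in the labelled line in the additive model, which went from 11 to 0 with limma-trend on log2(RPKM + 1) and to 0 on log2(RPKM + 0.1), where 24 and 22 members had an unadjusted p under 0.05. At that unadjusted threshold 2339 and 2208 of all loci passed in either direction. The causes were not tested. That last count was 15 with no filter, 8 with total counts and 8 with the most-read model. The DESeq2 Wald test gave 11, with no adjusted p for 13 members. Higher members numbered 17 to 20 for Al in wild type, 24 to 26 for genotype without Al and 8 to 12 with Al. Of 817 recomputed values of single members 0 changed direction, and 70 no longer passed their rule or test: 16 and 17 with limma-trend on log2(RPKM + 1) and log2(RPKM + 0.1), 12 with total counts, 10 with the DESeq2 Wald test and the others with RPKM, the most-read model or no filter. Total-count scaling moved the median of all loci in the genotype comparison without Al by -0.12 (log2). Values of members with few reads, such as WRKY41, WRKY18 and WRKY55, have wide counting intervals.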
